A study of Caenorhabditis elegans with 4 samples.

Results

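The genes described here are the iron storage and iron uptake genes of *C. elegans*, 6 of the 46745 sequence names in the count table. They comprise both ferritin genes, *ftn-1* (C54F6.14) and *ftn-2* (D1037.3), the transporter genes *smf-1* (K11G12.4), *smf-2* (K11G12.3) and *smf-3* (Y69A2AR.4), and the cytosolic aconitase gene *aco-1* (ZK455.1). The set was chosen by gene name with the 2004 against OP50 fold changes of these data already known. For this reason, the comparison of the foods is given for these 6 genes as a description, without a test. All samples were whole bodies of wild-type animals of the Bristol strain N2. The control food was *E. coli* OP50 (2 samples), and the other food was *L. paracasei* subsp. *paracasei* 2004 (2 samples). Feeding began 3 days after hatching, at Day 1 of adulthood, and lasted 3 days, and each RNA sample came from a pool of animals. The labels give culture in S basal medium, whereas the methods of the study give NGM plates. Nothing states that replicates came from separate cultures, so the spread between them may be technical.

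Ferritin forms a hollow protein shell that stores iron in a safe form. SMF-1, SMF-2 and SMF-3 belong to the NRAMP family, like the mammalian transporter DMT1, and bring iron, manganese and other divalent metals into cells. In *C. elegans*, the intestine is the main site of *ftn-1* and *smf-3* expression, and *ftn-1* is known to be repressed, and *smf-3* induced, when animals are kept in low iron. This control is transcriptional and involves HIF-1 and intestinal GATA factors, and worm ferritin mRNAs lack the iron-responsive element of mammalian ferritin mRNAs. ACO-1 is the worm homolog of the mammalian iron regulatory protein IRP1.

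The total counts lay between 44548901 and 50504029 per sample. Values are given as CPM, the share of a sample's counts scaled to a total of 1000000, or per kilobase of exons (RPKM) where levels of different genes are compared. 12505 genes that reached 0.5 CPM in at least 2 samples were fitted with edgeR. A call required a fold change above 2 together with an adjusted p-value below 0.1. Of all tested genes, 7.55% were called higher and 14.8% lower in animals fed 2004, with a median log2 fold change of -0.028. Between the OP50 samples, 72.9% of the tested genes had the higher CPM in replicate 2.

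*ftn-1* lies on the minus strand of chromosome V from 7546468 to 7547579 (WBcel235, Ensembl release 115) and has 3 exons. With OP50 the samples held 3153 and 5896 counts, whereas with 2004 they held 204 and 436. These counts correspond to 70.8 and 117 CPM with OP50 and to 4.40 and 9.41 CPM with 2004. Both 2004 samples lay far below both OP50 samples, and the lowest OP50 sample was still 7.52 times the highest 2004 sample. The mean was 93.8 ± 32.5 CPM (SD, n = 2) with OP50 and 6.90 ± 3.54 CPM (SD, n = 2) with 2004, a 13.6-fold lower level. On the log2 scale the fitted fold change was -3.78, with a standard error of 0.33, and 103 of the 12505 tested genes had a lower one. Replicates differed more for *ftn-1* than for most genes, by 1.65-fold with OP50 and by 2.14-fold with 2004. At least as large a difference between the 2004 replicates was seen in 1.36% of tested genes, and between the OP50 replicates in 8.89%, on the scale log2(CPM + 0.5). Without 2004 replicate 2, the higher of the pair, the log2 fold change was -4.47. Counting error was small beside this spread: the 95% exact Poisson interval of the 204 counts was 3.82 to 5.05 CPM. Such intervals cover counting error only.

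*ftn-2*, on the minus strand of chromosome I from 3680180 to 3680927 with 3 exons, was also lower with 2004, but much less so. Its 14634 and 20510 counts with OP50 stood against 9308 and 11878 with 2004, or 328 and 406 CPM against 201 and 256 CPM. The foods did not overlap, although the lowest OP50 sample exceeded the highest 2004 sample by only 1.28-fold. The mean was 367 ± 54.9 CPM (SD, n = 2) with OP50 and 229 ± 39.3 CPM (SD, n = 2) with 2004, with a log2 fold change of -0.72 (standard error 0.19). In 22.3% of tested genes the log2 fold change was lower still, so the value of *ftn-2* was a common one in these libraries. The exons of both ferritin genes overlap no other annotated gene. Reads that match both ferritin genes could have been split between them, which was not examined here.

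The ferritin genes therefore differed in balance as well as in sum between the foods. Summed per length, they gave 621 and 816 RPKM with OP50 and 316 and 409 RPKM with 2004, 1.98-fold less on average. *ftn-1* supplied 18.8% and 23.6% of this sum with OP50, but 2.30% and 3.79% with 2004. The ratio of *ftn-2* to *ftn-1*, per length, was 3.78 ± 0.765 with OP50 and 33.9 ± 12.1 with 2004 (SD over 2 samples). Ferritin mRNA in animals fed 2004 thus came almost wholly from *ftn-2*.

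**Figure D1:**
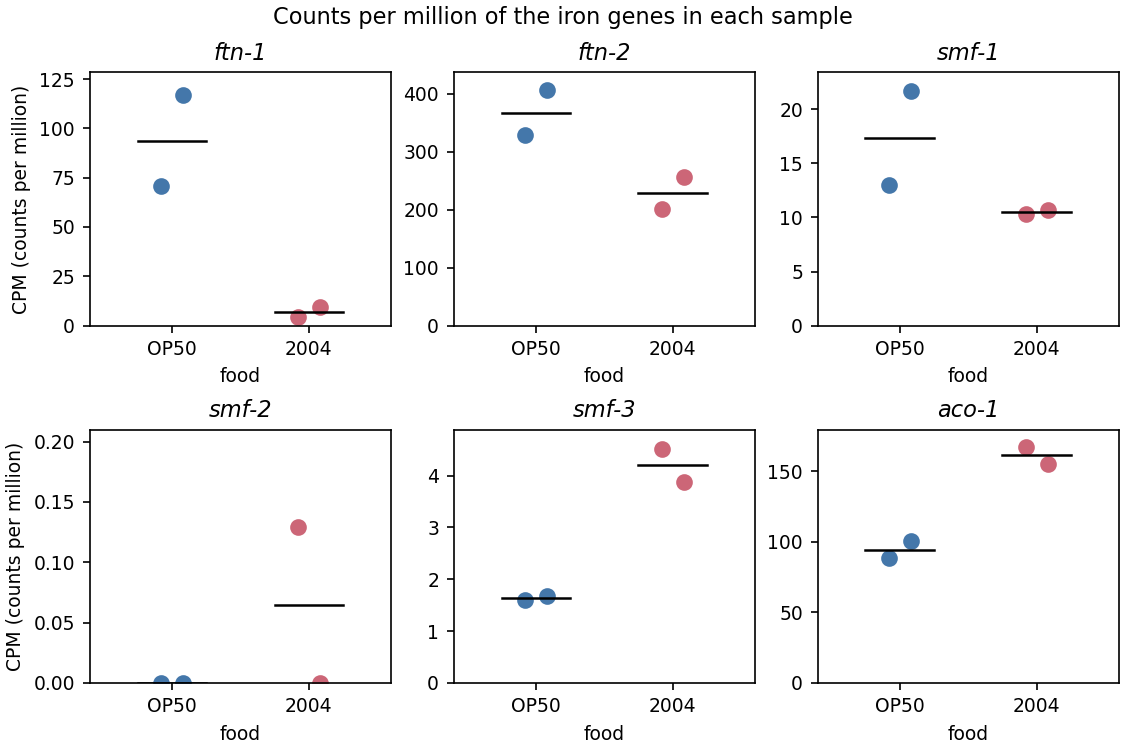
CPM of each iron gene (y axis, linear, a scale for each gene) in the 2 samples of each food (x axis), with points for samples and black lines for means. *ftn-1* lay at 70.8 and 117 CPM with OP50 and at 4.40 and 9.41 CPM with 2004, and *smf-3* and *aco-1* were higher with 2004.

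The NRAMP genes differed in opposite directions. *smf-3*, on the plus strand of chromosome IV from 2618869 to 2625503 with 12 exons, encodes the transporter best known for intestinal iron uptake. Counts were low, 71 and 85 with OP50 and 209 and 180 with 2004. The corresponding levels were 1.59 and 1.68 CPM with OP50 and 4.51 and 3.88 CPM with 2004. Both 2004 samples lay above both OP50 samples, and the difference between foods was much larger than that between replicates, at most 1.16-fold. The 95% exact Poisson intervals reached at most 2.08 CPM for the OP50 samples and began at 3.34 CPM or above for the 2004 samples. They cover counting error only and do not test the difference between foods. The mean was 1.64 ± 0.0631 CPM (SD, n = 2) with OP50 and 4.20 ± 0.442 CPM (SD, n = 2) with 2004, a ratio of 2.56. On the log2 scale the fitted fold change was 1.3, with a standard error of 0.31, and 5.21% of tested genes had a higher one.

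*smf-1*, on the minus strand of chromosome X from 6719669 to 6723066 with 11 exons, encodes a second NRAMP transporter of metal uptake. Counts of 581 and 1098 with OP50 faced 477 and 495 with 2004, or 13.04 and 21.7 CPM against 10.29 and 10.7 CPM. In CPM, which leaves out the TMM factors, the 2004 samples nearly coincided, whereas the OP50 samples differed by 1.67-fold. OP50 replicate 2 thus set much of the difference in CPM between foods. On the log2 scale the fitted fold change was -0.76, with a standard error of 0.22, and leaving out OP50 replicate 2 or OP50 replicate 1 gave -0.47 or -1.03. All counts of *smf-1* fell on transcript K11G12.4a, and transcript K11G12.4b was listed at 0 in every sample.

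*smf-2*, the third NRAMP gene, lies 973 bases from *smf-1* on the same strand of chromosome X, from 6716195 to 6718695. It had 6 counts in 2004 replicate 1 and 0 in each of the other samples. The limit that a count of 0 allows, taken as 3 counts, was 0.0594 to 0.0673 CPM in these libraries. *smf-2* was thus not detectable in 3 of the 4 samples, did not reach the 0.5 CPM of the filter in any, and was not tested. No fold change is given for it. It overlaps *nas-11* on the opposite strand, and no source states whether strand was used in counting.

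Within the NRAMP genes, the summed level differed less than the share of *smf-3*. The sum was 7.90 and 12.7 RPKM with OP50 and 7.98 and 7.80 RPKM with 2004. OP50 replicate 1 and the 2004 samples thus lay close together on this scale, which leaves out the TMM factors. *smf-3* supplied 10.4% and 6.84% of the sum with OP50 and 29.1% and 25.7% with 2004. *smf-1* remained the most abundant NRAMP mRNA on both foods, at 11.1 ± 3.53 times *smf-3* with OP50 and 2.65 ± 0.348 times with 2004 (SD over 2 samples). The ratio of summed ferritin to *smf-3*, per length, was 757 and 942 with OP50 and 136 and 205 with 2004, 4.99-fold less on average.

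**Figure D2:**
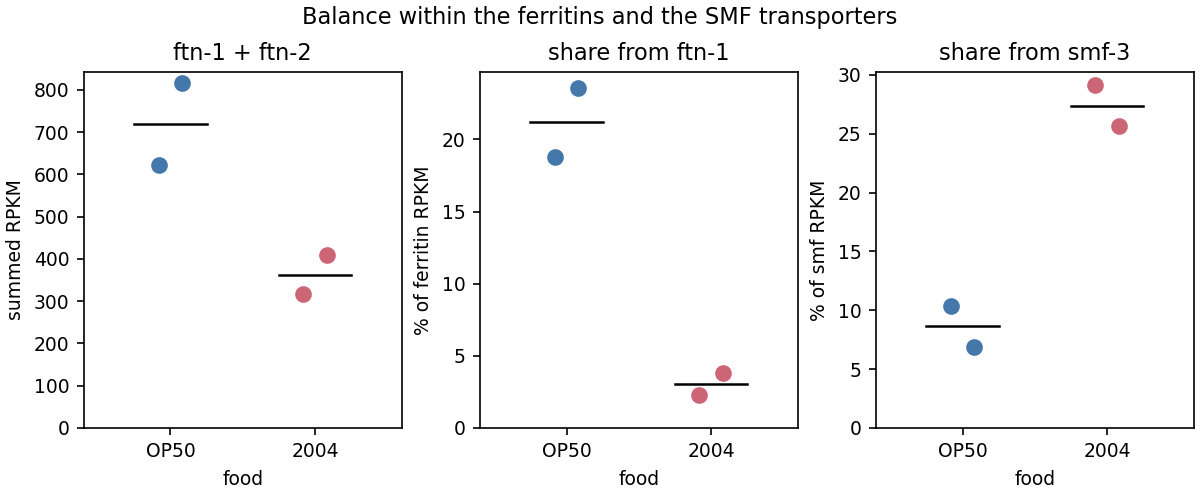
Summed RPKM of *ftn-1* and *ftn-2* (left), the percentage of this sum from *ftn-1* (middle) and the percentage of the summed *smf-1*, *smf-2* and *smf-3* RPKM from *smf-3* (right), by food, with points for samples and black lines for means. The *ftn-1* share was 18.8% and 23.6% with OP50 against 2.30% and 3.79% with 2004, and the *smf-3* share was 10.4% and 6.84% against 29.1% and 25.7%.

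*aco-1*, on the plus strand of chromosome X from 11339874 to 11343327 with 8 exons, encodes a cytosolic enzyme that interconverts citrate and isocitrate and holds an iron-sulfur cluster. Its counts were 3928 and 5084 with OP50 and 7746 and 7204 with 2004, or 88.2 and 101 CPM against 167 and 155 CPM. Both 2004 samples lay above both OP50 samples, and replicates agreed within 1.14-fold on either food. The mean was 94.4 ± 8.83 CPM (SD, n = 2) with OP50 and 161 ± 8.24 CPM (SD, n = 2) with 2004, a ratio of 1.71. On the log2 scale the fitted fold change was 0.72, with a standard error of 0.13, and 13.5% of tested genes had a higher one.

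Per length, the order of levels with OP50 was *ftn-2* (564 ± 84.3 RPKM), *ftn-1* (155 ± 53.6 RPKM), *aco-1* (33.4 ± 3.12 RPKM), *smf-1* (9.44 ± 3.34 RPKM), *smf-3* (0.844 ± 0.0325 RPKM) and *smf-2* (0), with SD over 2 samples. With 2004 the order was *ftn-2* (351 ± 60.3 RPKM), *aco-1* (56.97 ± 2.91 RPKM), *ftn-1* (11.4 ± 5.84 RPKM), *smf-1* (5.69 ± 0.150 RPKM), *smf-3* (2.16 ± 0.227 RPKM) and *smf-2* (0.0354 RPKM, from 1 sample). No neighbours in either order overlapped between their samples. *ftn-1* and *aco-1* exchanged places between the foods. The nearest pair was *ftn-1* and *smf-1* with 2004, whose means differed by 2.003-fold.

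The 5 iron genes in the fit all reached 0.5 CPM in all 4 samples. By fold change alone, *smf-3* was more than 2-fold higher and *ftn-1* more than 2-fold lower with 2004. Of all tested genes, 7.55% were called higher and 14.8% lower, for which an adjusted p-value was required as well. The other 3 tested iron genes had less than a 2-fold difference. The samples of the foods did not overlap for any of the 5, with 2 genes higher and 3 lower with 2004. Of all tested genes, 37.5% had both 2004 samples above the OP50 samples and 33.7% had both below, so this separation was common. Since the same comparison was known when the genes were chosen, nothing is drawn from these counts. For each of the 5 genes OP50 replicate 2 had a higher CPM than OP50 replicate 1, as for most genes. CPM leaves out the TMM factors, of which that of OP50 replicate 2 was the larger, so this order need not hold after scaling.

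**Figure D3:**
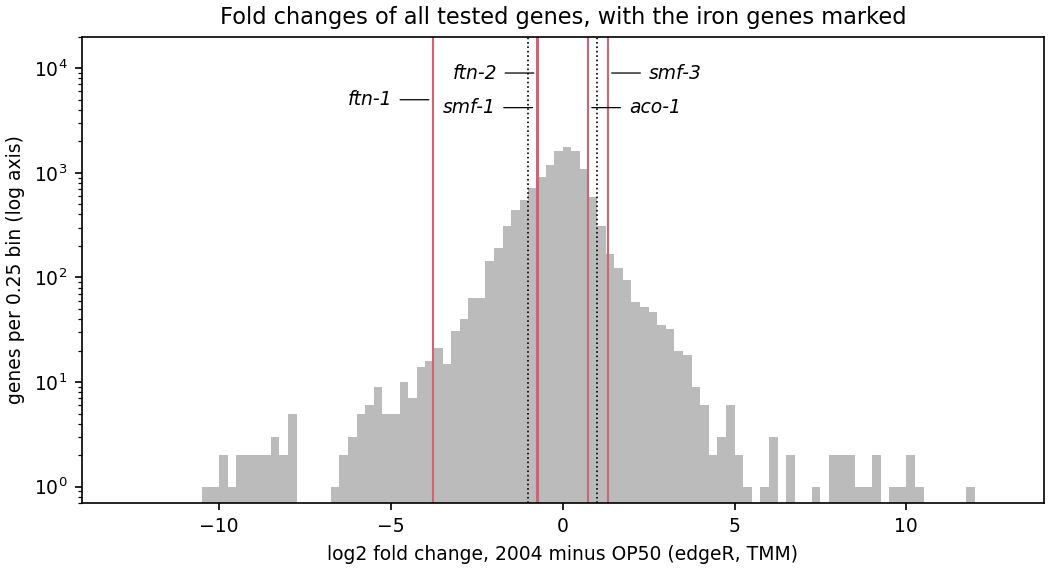
Histogram of the log2 fold changes (x axis, 2004 minus OP50) of the 12505 tested genes, with the number of genes in each bin on a log axis. Red lines mark the 5 tested iron genes and dotted lines mark 2-fold. *ftn-1* at -3.78 lay in the lower tail, and *ftn-2*, *smf-1* and *aco-1* lay within the 2-fold lines.

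For each tested iron gene, the 3 genes with the nearest profile were found by the Euclidean distance between log2(CPM + 0.5) values, centred over the 4 samples, among 6795 genes with a mean of at least 10 CPM. The 4 samples are shared by all profiles, so these distances are a description. Nearest to *ftn-1* were the C-type lectin gene *clec-5* (distance 0.190), D1086.3 (0.390) and *cpt-3*, of the carnitine palmitoyl transferase class (0.432). *clec-5* had 36.9 and 62.5 CPM with OP50 and 2.20 and 4.10 CPM with 2004, and like *ftn-1* it was lower in replicate 1 of each food. Nearest to *smf-3* were *let-391* (0.0408), K09E9.3 (0.0540) and F46B6.6 (0.0547). The nearest genes were *clc-1* (0.0450), *ttr-18* (0.0480) and F46H5.7 (0.0643) for *ftn-2*, and Y37D8A.25 (0.0612), *dpy-31* (0.0622) and *fhod-1* (0.0845) for *smf-1*. *aco-1* was closest to *mars-1*, the methionyl-tRNA synthetase gene (0.0236), *acin-1* (0.0411) and *sec-24.2* (0.0461). Even the nearest gene to *ftn-1* was farther from it than each of the 3 genes given for any other member.

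Genes of iron handling outside the 6 were taken from lists by name and tested in the same fit over all genes. The lists were written with earlier results of these data known, so their counts are a description. Of 43 tested genes in these lists, 9 were higher and 1 lower, and 7 of the higher ones were of the heme list. For all list and marker counts below that used both thresholds, the shares of all tested genes were 7.55% higher and 14.8% lower. Of iron export, *fpn-1.2*, a ferroportin homolog, rose from 0.844 ± 0.178 CPM (SD, n = 2) with OP50 to 2.81 ± 0.306 CPM (SD, n = 2) with 2004. Its log2 fold change was 1.69 (standard error 0.39, edgeR adjusted p = 0.0068). The more abundant *fpn-1.1*, with 27.1 and 22.5 CPM on average, had a log2 value of -0.30 (standard error 0.18, edgeR adjusted p = 0.198). *fpn-1.3*, *lpd-8* and *hscb-1* of the lists were matched to no name and are not analysed here.

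Among the genes listed here as factors of ferritin transcription, 0 of 5 passed both thresholds, and the median log2 fold change was -0.18. Whether each acts on the ferritin genes was not examined here. *elt-2*, the main GATA factor of the intestine, had 9.24 ± 0.967 CPM with OP50 and 10.2 ± 1.59 CPM with 2004 (SD over 2 samples each), with a log2 fold change of 0.09 (edgeR adjusted p = 0.759). *hif-1*, which encodes the hypoxia-inducible factor, had a log2 value of -0.34 (standard error 0.14, edgeR adjusted p = 0.0823), below 2-fold. *daf-16* had a value of 0.58 (edgeR adjusted p = 0.0126), also below 2-fold, and *elt-7* and *pqm-1* had adjusted p-values of 0.649 and 0.104 (edgeR).

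For the HIF-1 pathway, 0 of 7 genes for HIF-1 and its regulators passed both thresholds, with a median of -0.088. *egl-9*, which encodes the iron-dependent prolyl hydroxylase that marks HIF-1 for destruction, came closest, with a log2 fold change of 0.97 (standard error 0.19, edgeR adjusted p = 0.00342). It passed 2-fold under scaling by library size alone (1.02) and without OP50 replicate 1 (1.01) or 2004 replicate 2 (1.06). *aha-1* and *swan-1* had values of 0.63 and 0.55, below 2-fold, with adjusted p-values of 0.0404 and 0.00936 (edgeR). Of 8 HIF-1 responsive genes, 7 were tested, and 1 was higher and 0 lower, with a median of 0.22. The one that rose was *cysl-2*, a cysteine synthase family gene, from 35.7 ± 6.94 CPM with OP50 to 87.9 ± 14.6 CPM with 2004 (SD over 2 samples each). Its log2 fold change was 1.23 (standard error 0.18, edgeR adjusted p = 0.000569), and it dropped below 2-fold without OP50 replicate 2 (0.95). *cah-4*, a carbonic anhydrase gene of the same list, had a value of -0.92 (standard error 0.14, edgeR adjusted p = 0.000772), and it passed 2-fold without OP50 replicate 1 (-1.07) but under no other alternative run. *egl-9* stands on both lists, so the responsive list had 2 higher genes where *egl-9* passed, and it had 0 where *cysl-2* did not.

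For mitochondrial iron import and iron-sulfur cluster assembly, 0 of 8 tested genes passed both thresholds, with a median of -0.33. At an adjusted p-value below 0.1 without the 2-fold limit, 4 of these 8 genes passed, each with the lower level with 2004. By this looser rule, 6 of 10 tested iron enzyme genes and 4 of 7 genes for HIF-1 and its regulators passed. For the factors of ferritin it was 2 of 5. The share of all tested genes by this rule is not given here, so nothing is drawn from the count. *iscu-1*, the scaffold on which clusters are built, had a log2 value of -0.54 (standard error 0.12, edgeR adjusted p = 0.00632), and *frh-1*, frataxin, had -0.62 (standard error 0.21, edgeR adjusted p = 0.0395). The others of the 4 were *cisd-1* and *cisd-3.1*, with values of -0.44 and -0.53. *mfn-1*, mitoferrin, had 48.6 and 48.2 CPM on average, with an adjusted p-value of 0.724 (edgeR).

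Of 12 genes for enzymes that need iron, 10 were tested, 1 was lower and 0 higher, with a median of -0.12. *pah-1*, phenylalanine hydroxylase, fell from 34.2 ± 11.7 CPM with OP50 to 12.8 ± 1.45 CPM with 2004 (SD over 2 samples each). Its log2 fold change was -1.45 (standard error 0.19, edgeR adjusted p = 0.000348). *aco-2*, the mitochondrial aconitase gene, had 505 ± 12.0 CPM (SD, n = 2) with OP50 and 891 ± 83.0 CPM (SD, n = 2) with 2004. Its ratio of 1.77 stood beside that of 1.71 for *aco-1*, and its log2 fold change of 0.76 (standard error 0.19, edgeR adjusted p = 0.011) was below 2-fold. Of the iron-sulfur subunit genes of the respiratory chain, *nduf-7* had a value of -0.47 (edgeR adjusted p = 0.0227), below 2-fold. *sdhb-1*, *isp-1* and *nuo-5* had values of -0.27, -0.28 and 0.026, with adjusted p-values of 0.213, 0.226 and 0.93 (edgeR). Also below 2-fold, *phy-2*, *rnr-2* and *hpd-1* had values of -0.77, 0.53 and 0.33, with adjusted p-values of 0.0259, 0.0662 and 0.091 (edgeR).

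Worms cannot make heme and take it up from food. Of the list of heme transport and heme response genes, 7 of 8 tested genes were higher with 2004 and 0 lower. *hrg-2*, *hrg-3* and *hrg-9* reached 0.5 CPM with 2004 alone, so they were tested only because they were high there. With a filter of 10 counts in every sample, 5 genes of this list were tested and 5 were higher. The intestinal heme importer gene *hrg-4* rose from 0.760 ± 0.186 CPM with OP50 to 21.7 ± 6.45 CPM with 2004 (SD over 2 samples each), and its log2 fold change was 4.77 (standard error 0.28, edgeR adjusted p = 2.7e-06). *hrg-1*, another heme importer gene, rose from 9.93 to 168 CPM on average, and *mrp-5*, the intestinal heme exporter gene, rose from 93.7 to 432 CPM. The log2 fold changes of *hrg-9*, *hrg-7* and *hrg-2* were 2.72, 6.73 and 7.80, and that of *hrg-6*, which was not called, was 0.60. *hrg-3* was listed at 0 with OP50 and had counts of 682 and 241 with 2004, or 14.7 and 5.20 CPM. Their mean was at least 157 times the OP50 mean when 3 counts are taken for each OP50 library. This bound is for the means and not for each sample. Without either 2004 sample the count was 4, because *hrg-2*, *hrg-3* and *hrg-9* then reached 0.5 CPM in a single sample and were not tested.

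**Figure D4:**
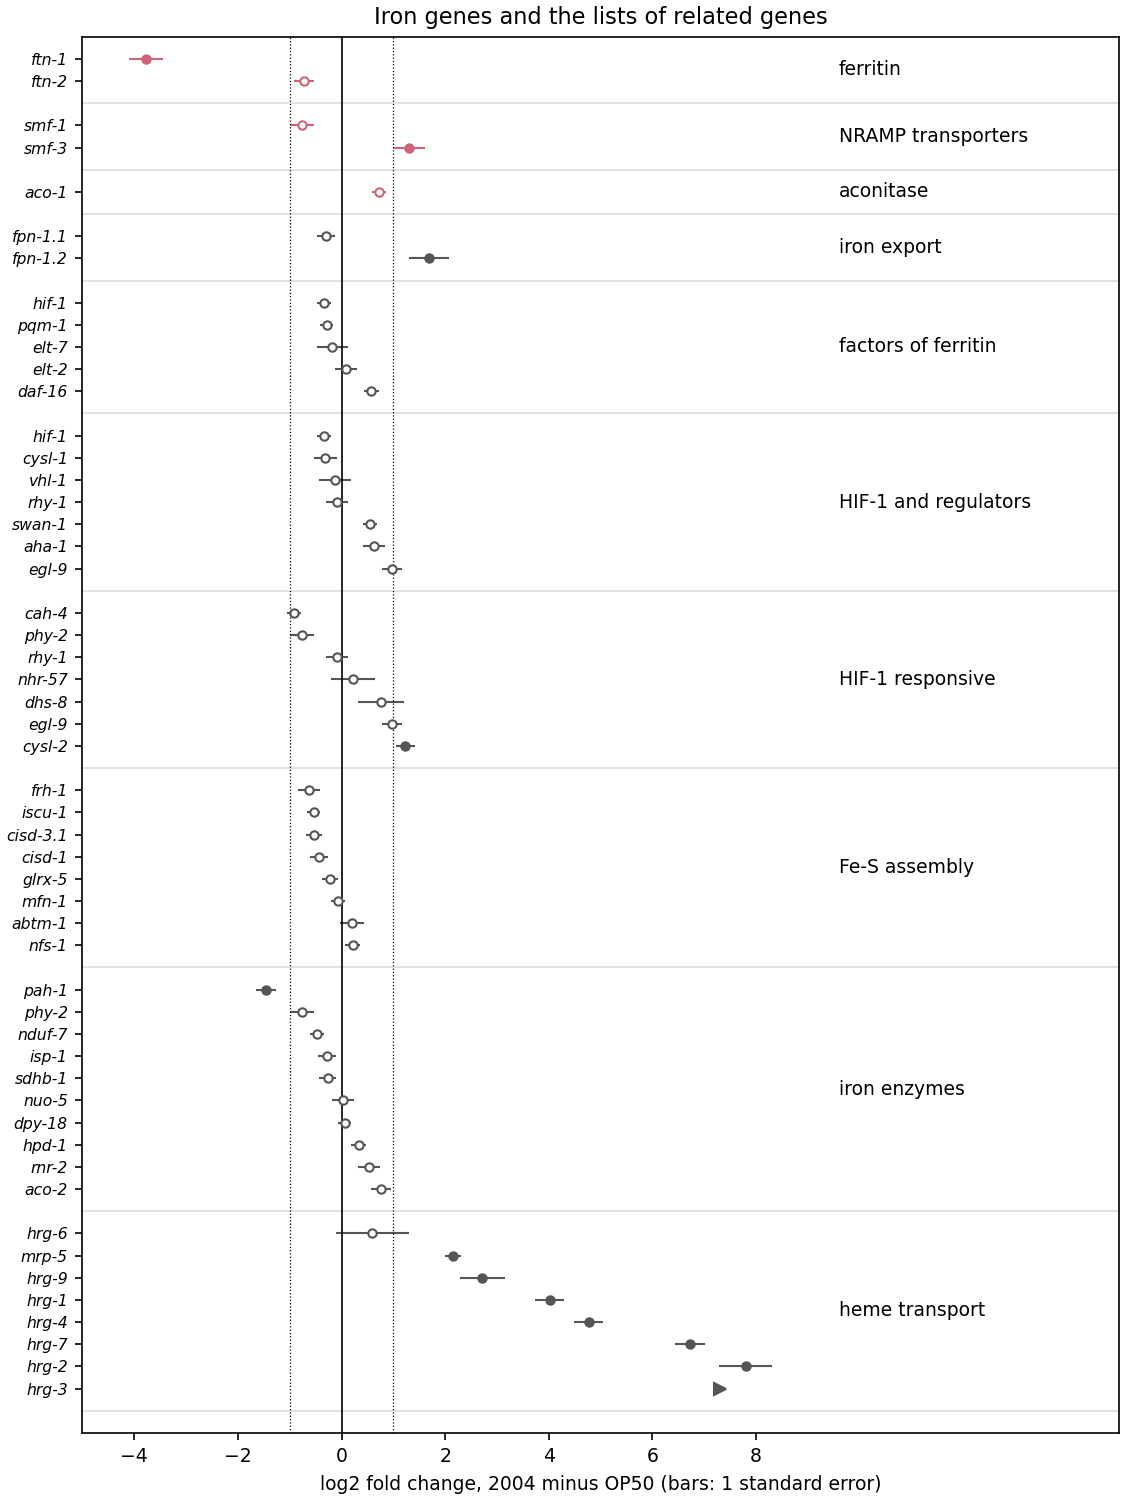
Log2 fold changes (x axis, 2004 minus OP50) of the tested iron genes (red) and of the related lists (grey), with bars of 1 standard error. Filled points passed both thresholds. The iron genes were chosen with this comparison known, so nothing is drawn from whether their points are filled. Dotted lines mark 2-fold. The arrowhead for *hrg-3* is a lower bound for the ratio of means, with 3 counts taken for each OP50 library. *ftn-1* at -3.78 had the lowest value shown, and all 7 filled genes of the heme list lay to the right.

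In whole animals, fewer cells of a type and less RNA per cell cannot be told apart, so markers of several tissues were read beside these values. Of 8 intestinal markers, 2 were higher (*vha-6* and *asp-1*) and 0 lower, with a median of 0.61, and their summed level was 1148 to 1713 CPM with OP50 and 2973 to 3108 CPM with 2004. *asp-1* alone made up most of this sum, with 1033 CPM on average with OP50 and 2116 CPM with 2004. *ges-1* had 8.65 and 5.41 CPM on average (log2 fold change -0.69, edgeR adjusted p = 0.122), and *elt-2* is given above. 3 of 4 muscle markers (*unc-54*, *unc-15* and *unc-22*) were lower, with sums of 1064 to 1174 CPM with OP50 and 348 to 393 CPM with 2004. Of the other tested markers, 0 of 6 germline genes, 1 of 5 embryonic genes (*tbx-38*, which reached 0.5 CPM with 2004 alone) and 0 of 2 epidermal genes were higher, and 2 of 5 neuronal genes (*unc-13* and *ric-4*) and 1 of 3 pharyngeal genes (*myo-2*) were lower. The epidermal markers *rol-6* and *bli-1* were at or near 0 in every sample. Without OP50 replicate 1, 1 intestinal marker was higher and 1 lower, and without 2004 replicate 2, 3 were higher and 0 lower. The pharyngeal count changed by 1 without 2004 replicate 2 or with library size scaling. The neuronal count was 1 without OP50 replicate 2 or 2004 replicate 2, with DESeq2, with both other scalings and with the looser filters. The embryonic count changed by 1 without OP50 replicate 1 or either 2004 sample, and it was 0 with no filter beyond 1 count and with 10 counts in every sample. With glmTreat the intestinal, embryonic, neuronal and pharyngeal counts were each 1 lower, and the looser filters added 1 epidermal gene. The part of these differences in the values of the iron genes was not tested.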

How the data were processed

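Total RNA of 4 whole-body samples was sequenced. Per the methods of the study, with versions from the submitters' processing notes, reads were inspected with FastQC 0.11.8, trimmed with Trim Galore 0.6.4, aligned to WBcel235 with HISAT2 2.1.0, sorted with SAMtools 1.7 and counted with StringTie 2.1.1. The authors deposited these as estimated counts per transcript, as whole numbers without normalization, so no rounding was needed. The annotation release, read length and strandedness are not given in the sources used here.

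Counts of the 57834 listed transcripts were summed by sequence name (K11G12.4a and K11G12.4b both count for K11G12.4). Names, coordinates and exonic lengths for RPKM came from Ensembl release 115 for the same build, in which 99.5% of the transcripts had a known sequence name. The quasi-likelihood test of edgeR 4.0.16 in R 4.3.3 was run after TMM normalization, without covariates, with Benjamini-Hochberg adjustment over all tested genes. Standard errors came from its F statistic. On simulated counts for 12228 genes, the test recovered 200 of 200 genes changed by a log2 fold change of 2, with 7 false calls. Every simulated gene had the same dispersion, and the changed genes were drawn from above a CPM limit. Smaller changes were not simulated, so this run does not bear on calls near 2-fold or on genes with wider spread. Alternatives were DESeq2 1.42.0, voom in limma 3.58.1, other scalings and filters, a replicate block, other thresholds, other log scales and each sample left out in turn. A chi-square test over genes found differences beyond counting noise within each food (82.9 per degree of freedom with OP50, 35.6 with 2004), so all samples were kept apart.

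The 6 genes and the lists of related genes were chosen with earlier results of these data known. The text names the 6 genes, list genes that passed or were needed for a count, and the 3 nearest profiles of each tested member with a mean of at least 10 CPM. Other list genes given with values were picked after these were seen. Promoter motifs were planned but not analysed here, since no sequence was used.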

Additional observations from a re-analysis of the deposited data

How the results depend on the processing

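The log2 fold changes of all 5 tested iron genes kept their sign under each alternative run. Values that moved by more than the SD between replicates were those of *smf-3* on the scales log2(CPM + 2) (0.77) and log2(CPM + 4) (0.54), whose added constant is large beside its level, and that of *ftn-1* without 2004 replicate 2. *ftn-1* ranged from -4.47 to -3.27 when single samples were left out. Under the same omissions *ftn-2* ranged from -0.95 to -0.49, *smf-1* from -1.03 to -0.47, *smf-3* from 1.24 to 1.38 and *aco-1* from 0.70 to 0.75. A lone sample of a food was then assumed to vary like the other food. Tested directly against 2-fold with glmTreat, 333 genes were higher and 670 lower, against 944 and 1851. Of the related lists, between 6 and 10 genes were higher and between 1 and 2 lower when single samples were left out. Of the 10 called genes of these lists, *cysl-2* and *fpn-1.2* did not pass glmTreat.

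Same-numbered samples did not deviate together (correlation -0.11), and the labels do not pair them. With the replicate block, 923 genes were higher and 1785 lower. With the numbers crossed, an alternative added after seeing the data, 948 were higher and 1845 lower. At most 209 counts lay behind *smf-3* and 6 behind *smf-2* in any sample, so depth limited these genes most.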
